A study of Homo sapiens with 12 samples.

Results

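The 8 genes described here encode transcription factors of the noradrenergic core circuitry of neuroblastoma. They are PHOX2A, HAND1, HAND2, GATA2, GATA3, ISL1, TBX2 and INSM1, and they are listed for this cell identity, with earlier results of these data known. Other genes of the circuitry were not analysed here, so counts of 8 do not speak for the whole circuitry. They make up 8 of the 20033 protein-coding genes analysed. The measurement was a chromatin immune precipitation with sequencing (ChIP-seq) for H3K27me3, the trimethylation of histone H3 at lysine 27. It was done on SH-SY5Y cells, a human neuroblastoma line grown in complete medium, in 3 genotypes with 2 replicates each. WT cells express Tau, the microtubule-binding protein encoded by MAPT, and the Tau-KO lines 231K and 232P are separate lines of the same cells with the MAPT gene knocked out. Each Tau-KO genotype is represented by 1 line, so within either comparison an effect of Tau and a property of the line cannot be told apart. The study asked whether loss of Tau changes this mark.

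The 6 deposited peak lists ranged from 147118 peaks in 232P replicate 1 to 285826 in WT replicate 1, with 222191 for the other WT sample, 271413 and 212347 for 231K and 199677 for 232P replicate 2. The list of 232P replicate 1 was the shortest, and its peaks covered 70.3 Mb of the genome, against 197 to 290 Mb in the other 5 samples. The lists also split by replicate number, with a median peak width of 335 to 441 bp in the replicates numbered 1 and 666 to 688 bp in those numbered 2. The methods of the study state fewer peaks per sample than these lists hold, so marked and free refer to the longer deposited lists. For INSM1, the main tested differences between 232P and WT are given with and without 232P replicate 1. Other ranges and group means at INSM1 include it. A peak is a stretch in which the reads pile up above a local background. Its fold enrichment is the ratio of this pile to the background at the summit, and its q-value is the p-value adjusted for the number of positions tested. At the lowest background of each list, a peak needed at least 5 reads at its summit, which corresponded to a fold enrichment of 2.38 to 2.97. Where the local background was higher, more reads were needed and the fold enrichment of a peak could be lower. A peak near INSM1 in 231K replicate 1 had 2.28. Absence of a peak means that the level needed over the local background was not reached at the depth of that library. It does not mean that the mark was absent. In such a bulk sample, fewer cells with the mark and less mark per cell cannot be told apart. MAPT itself had no peak within 5 kb in any of the 6 samples, with the nearest one 102 to 109 kb away, so the lists offer no check of the genotype. Within the files of line 232P each peak carries a name starting with 231P. In the study's methods 231P is the name of another Tau-KO line, so the samples called 232P here may be of that line, which the lists cannot settle. The groups given here are those of the labels.

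Neuroblastoma arises from sympathoadrenal cells of the neural crest. In its adrenergic state, a small set of transcription factors bind to their own and to each other's enhancers and keep the genes of catecholamine synthesis active. In its mesenchymal state, other factors prevail. H3K27me3 is deposited by the Polycomb Repressive Complex 2 (PRC2), often over developmental regulator genes that a cell type does not use, and typically spreads from CpG islands, stretches rich in the dinucleotide CG at gene starts. The mark is not a measure of RNA, and a gene without it is not thereby shown to be expressed. SH-SY5Y cells are known as predominantly adrenergic.

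The sequences that show what kind of gene start is at issue are printed first, 5′ to 3′, with every CG in capitals. The promoters of HAND2 and TBX5, a heart and limb T-box gene outside the circuitry, both held 15 CG in the 300 bases around the start (250 before and 50 after it), and they differed in the mark. The HAND2 promoter had a peak in 0 of 6 samples, the TBX5 promoter in 6 of 6. TBX5 has a second entry in the promoter table, with 21 CG and also a peak in 6 of 6 samples. This pair was chosen after the values were seen, as an unmarked and a marked promoter with the same number of CG. The ISL1 promoter held 36 CG, a number reached by 12.7% of the 35116 promoters in the table, and had a peak in 0 of 6 samples. The sequences and coordinates are from RefSeq, build GRCh38.p14.
HAND2 promoter, chr4:173530180-173530479, minus strand: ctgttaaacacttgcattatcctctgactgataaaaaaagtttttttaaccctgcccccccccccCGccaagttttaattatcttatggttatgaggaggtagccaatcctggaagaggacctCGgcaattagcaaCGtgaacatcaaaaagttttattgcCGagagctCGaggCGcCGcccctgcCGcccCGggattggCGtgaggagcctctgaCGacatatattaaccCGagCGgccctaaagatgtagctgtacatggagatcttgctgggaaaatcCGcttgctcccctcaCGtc
TBX5 promoter, chr12:114408393-114408692, minus strand: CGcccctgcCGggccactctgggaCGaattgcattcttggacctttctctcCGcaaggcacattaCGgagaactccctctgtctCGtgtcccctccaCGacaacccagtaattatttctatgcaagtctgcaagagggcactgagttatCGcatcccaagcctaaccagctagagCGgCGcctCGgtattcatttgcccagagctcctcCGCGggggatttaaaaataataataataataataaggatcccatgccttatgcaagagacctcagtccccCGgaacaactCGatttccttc
ISL1 promoter, chr5:51383198-51383497, plus strand: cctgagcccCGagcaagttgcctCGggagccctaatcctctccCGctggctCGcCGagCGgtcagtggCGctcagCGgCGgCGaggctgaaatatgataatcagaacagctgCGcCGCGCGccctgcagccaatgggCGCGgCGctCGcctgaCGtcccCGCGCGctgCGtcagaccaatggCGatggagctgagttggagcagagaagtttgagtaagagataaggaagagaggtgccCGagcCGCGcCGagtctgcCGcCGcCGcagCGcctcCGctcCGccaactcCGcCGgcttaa

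Of the 8 genes, 6 had an entry in the promoter table, all but TBX2 and INSM1, and 4 of these had a single promoter. These were PHOX2A with 34 CG, HAND1 with 21, HAND2 with 15 and ISL1 with 36. GATA2 had 2 entries with 22 and 29 CG, and GATA3 had 6 with 5 to 36 CG. None of these promoters had a peak in any sample. Over all 35116 promoters, 887 or 2.53% held a peak in all 6 samples. The median number of CG was 14 over all promoters and 4 in those marked in all 6 samples. Of the 17186 promoters with at least 15 CG, 0.268% were marked in all 6 samples, so an unmarked promoter was the usual case at this CG content. The GATA core motif AGATAA, searched on both strands, was found in the HAND2 and ISL1 promoters printed above and in 10.3% of all promoters. The homeodomain core TAATTA, which reads the same on both strands, was found in the HAND2 and the printed TBX5 promoters and in 4.84% of all.

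Of the 8 genes, 7 had no peak in the gene with 5 kb on each side in any of the 6 samples, and only INSM1 had one in all 6. Over all protein-coding genes, 68.3% had none in any sample and 19.7% had one in all 6, so a gene without the mark was the common case. No member had a peak within 1 kb of an annotated start site in any sample, a state shared with 78.1% of all genes. Start-site peaks in all 6 samples, found for 0 of the 8, were present for 11.4% of all genes. For the 7 unmarked genes, the median distances to the nearest peak over the 6 samples were between 317 and 1248 kb. The median was 235 kb over the 13688 genes that, like these 7, had no peak in any sample, and 112 kb over all genes with the marked ones at 0. Of the 13688 unmarked genes, 7.85% to 41.4% were at least as far from a peak as the gene in question, TBX2 and GATA3 giving the limits, so none of the 7 was at the extreme of the genome. No test was made of these counts, since peak lists hold no counts to test and the 8 genes are not replicates.

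**Figure D1:**
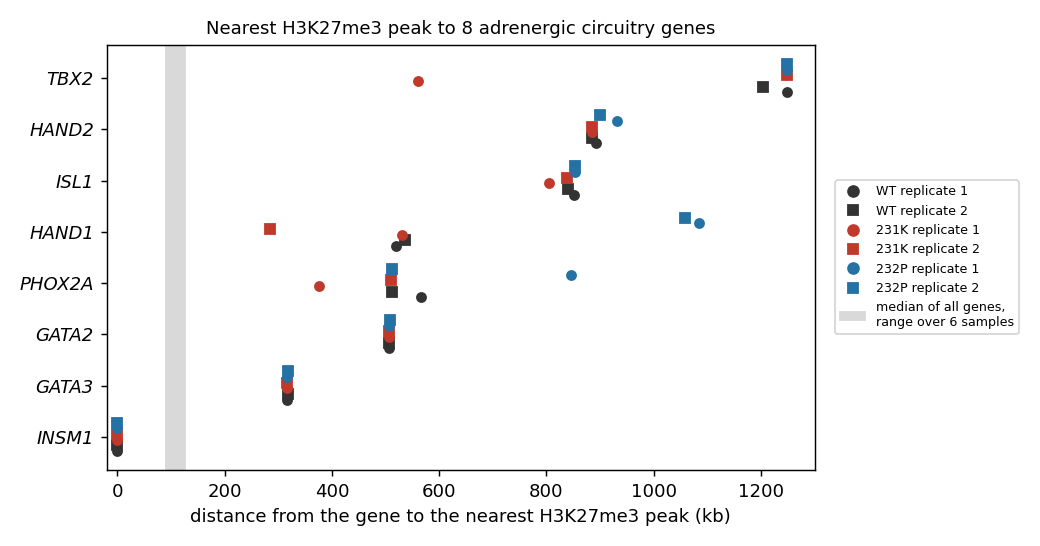
Distance (kb) from each of the 8 genes to its nearest H3K27me3 peak in each sample, with the range of the all-gene median over the 6 samples as a grey band. INSM1 sits at 0 in all 6 samples, and the points of the other 7 genes lie to the right of the band in all 6 samples.

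PHOX2A, a paired-like homeodomain factor required for noradrenergic differentiation, lies on chromosome 11 (chr11:72239077-72245664, minus strand, hg38) between FOLR2 and CLPB. Its nearest peak was 566 and 513 kb away in the WT replicates, 377 and 510 kb in 231K and 846 and 512 kb in 232P. The value of 377 kb in 231K replicate 1 came from a peak of 201 bp with a fold enrichment of 2.46, near the lowest of that list at its lowest background. Both 231K values lay below all those of WT and 232P, and WT and 232P overlapped. That of 231K replicate 2, 510.4 kb, was close to the 511.8 kb of 232P replicate 2. When peaks with a q-value of 0.05 or more were left out, the smallest distance was 510 kb. The stretch without a peak in any of the 6 samples was 0.894 Mb long and held 18 protein-coding genes, and 40.3% of the unmarked genes lay in a stretch at least as long.

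HAND1 and HAND2 are basic helix-loop-helix factors of heart and sympathetic development. HAND1 lies on chromosome 5 (chr5:154474972-154478227, minus strand), with SAP30L and LARP1 as neighbours. Its nearest peak was 520 and 536 kb away in WT, 530 and 286 kb in 231K and 1085 and 1058 kb in 232P. Both 232P samples lay above the other 4. The same was seen by far smaller margins at HAND2, GATA2 and ISL1, and not at PHOX2A, GATA3 and TBX2. At the peak nearest to HAND1 the fold enrichment was 2.78 and 2.52 for WT and 2.89 and 4.17 for 231K, and that of 4.17, in 231K replicate 2, was 904 bp long. The list of 232P replicate 1 was the shortest and that of 232P replicate 2 the least deep, at 56.9% of the depth of WT replicate 1. With the same number of strongest peaks, 147118, taken from every list, the median distance rose to 1070 kb, and the smallest stayed at 286 kb in 231K replicate 2. The part of depth in the difference of 232P was not tested further. HAND2 on chromosome 4 (chr4:173524969-173530229, minus strand) varied far less, with 893 and 885 kb in WT, 885 and 886 kb in 231K and 932 and 900 kb in 232P. Its stretch without a peak in any sample was 2.60 Mb long and held 7 protein-coding genes, from within GALNTL6 to near HPGD. That of HAND1 was 1.53 Mb long and held 9.

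GATA2 and GATA3 are zinc finger factors that bind the GATA motif and act in sympathetic neurons as well as in blood. Their nearest peaks were at nearly the same place in all samples. GATA2 (chr3:128479427-128493201, minus strand) was 507 and 506 kb from a peak in WT, 507 and 506 kb in 231K and 507 and 509 kb in 232P. GATA3 (chr10:8045378-8075198, plus strand) was 317 kb from a peak in both WT samples, 317 kb in both of 231K, and 317 and 318 kb in 232P. The peak that bounded GATA3 lay in ITIH2 and had a fold enrichment of 2.94 to 5.74 over the 6 samples. On the other side of GATA3, the next peak was over 1252 kb away. Around GATA2, 2.46 Mb with 19 protein-coding genes were free of peaks in all 6 samples, from CHST13 to CFAP92, and around GATA3 1.60 Mb with 4. The limits of these stretches moved by at most 14.1 kb between samples.

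ISL1, a LIM homeodomain factor of sympathetic and motor neurons, lies in a gene-poor part of chromosome 5 (chr5:51383448-51394730, plus strand), 537 kb from PARP8 and 1393 kb from PELO. Its nearest peak was 851 and 840 kb away in WT, 805 and 839 kb in 231K and 853 kb in both 232P samples. The free stretch in all 6 samples was 2.61 Mb long with 6 protein-coding genes. TBX2, a T-box factor that acts mostly as a repressor, lies on chromosome 17 (chr17:61399843-61409466, plus strand) between BCAS3 and TBX4. It had the longest free stretch of the 7, with 3.15 Mb and 36 protein-coding genes, and 4.83% of the unmarked genes lay in one at least as long. The nearest peak was 1248 and 1203 kb away in WT, 560 and 1248 kb in 231K and 1248 kb in both 232P samples. In WT replicate 2 this peak had a fold enrichment of 2.27, below the 2.51 needed at the lowest background of that list. The local background at this peak was thus above the lowest. The part of local background in the length of the TBX2 stretch was not tested. The low value of 231K replicate 1 rested on a peak of 188 bp with a fold enrichment of 2.53, and it was still 560 kb when peaks with a q-value of 0.05 or more were left out. With equal numbers of strongest peaks the smallest distance was 1248 kb. By the median distance, the order from near to far was GATA3, GATA2, PHOX2A, HAND1, ISL1, HAND2 and TBX2. The neighbours GATA2 and PHOX2A, PHOX2A and HAND1, HAND1 and ISL1, and HAND2 and TBX2 overlapped in their 6 values. GATA3 and GATA2 did not overlap, nor did ISL1 and HAND2.

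**Figure D2:**
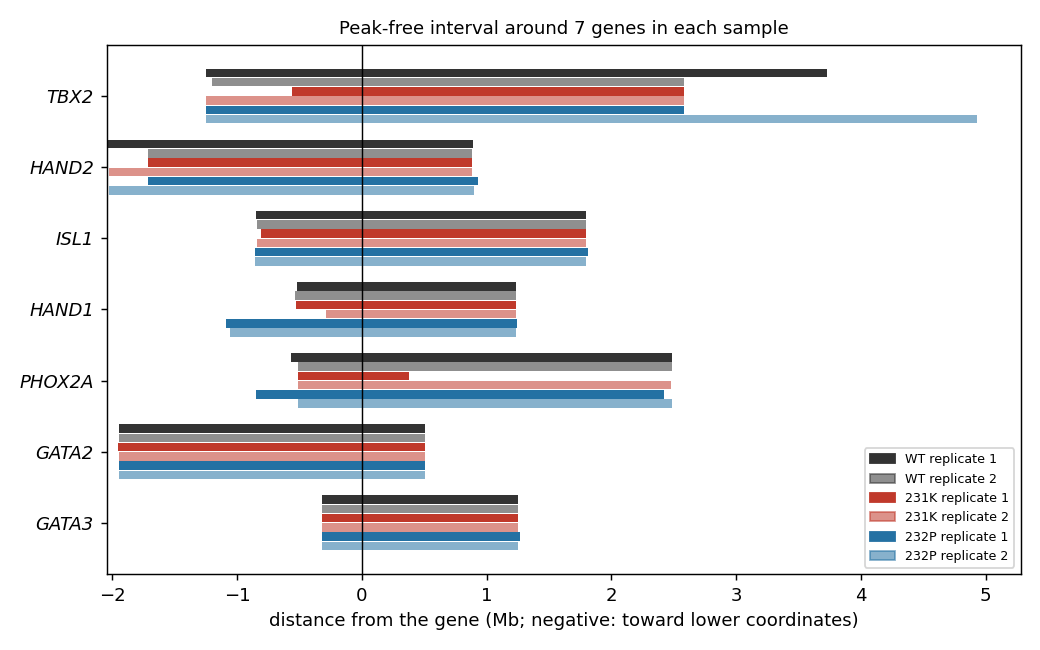
Stretch without an H3K27me3 peak around each of the 7 unmarked genes in every sample, as the distance from the gene in Mb (negative values toward lower coordinates). The limits coincide between samples for GATA2 and GATA3, while 231K replicate 1 ends early for PHOX2A and TBX2.

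INSM1, a zinc finger factor of neuroendocrine differentiation, differed from the other 7. It is a gene with a single exon on chromosome 20 (chr20:20368104-20370949, plus strand), between CFAP61 and RALGAPA2, and peaks lay on both sides of its start in all 6 samples. The 2 stretches printed below are parts of these peaks that all 6 samples shared, 1 before the start and 1 behind the gene end. They are from hg38, plus strand, and neither holds a CG, so no base is in capitals.
INSM1 upstream flank, chr20:20366110-20366259, plus strand: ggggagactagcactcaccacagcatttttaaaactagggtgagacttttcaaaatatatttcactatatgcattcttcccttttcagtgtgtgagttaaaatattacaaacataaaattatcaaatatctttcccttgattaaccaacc
INSM1 downstream flank, chr20:20371513-20371662, plus strand: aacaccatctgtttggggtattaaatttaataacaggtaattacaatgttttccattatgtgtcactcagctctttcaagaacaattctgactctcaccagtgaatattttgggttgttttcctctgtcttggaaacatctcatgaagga

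The peaks covered 45.1% and 55.0% of INSM1 with 5 kb on each side in the WT replicates, 48.1% and 54.1% in 231K and 30.5% and 42.3% in 232P. Both 232P samples were below the other 4, and 232P replicate 1 was the lowest. The group means were 50.1% ± 7.0 in WT, 51.1% ± 4.25 in 231K and 36.4% ± 8.35 in 232P (SD, n = 2 each). The highest fold enrichment was 5.96 and 8.83 in WT, 6.56 and 9.59 in 231K and 5.97 and 8.83 in 232P, so the 3 genotypes overlapped. Within each genotype, replicate 2 gave the higher value. Between samples of the same number, the covered part differed from WT by -14.7 and -12.7 percentage points in 232P and by 2.93 and -0.95 in 231K. The top fold enrichment differed by 0.604 and 0.759 in 231K and by 0.0101 and 0.00382 in 232P. The -log10 q-value of the strongest peak lay between 5.26 in 232P replicate 1 and 15.6 in 231K replicate 2. Among the 3939 genes marked in all 6 samples, 61.5% to 83.1% were covered to a smaller part than INSM1, depending on the sample, and 51.7% to 96.7% had a lower top fold enrichment.

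In every sample, the peaks left out the start of INSM1. The stretch without a peak measured 3281 and 3369 bp in WT, 3397 and 3426 bp in 231K and 4314 and 3451 bp in 232P. It began 1464 to 1844 bp before the start and ended 1816 to 2469 bp behind it. The 3281 bp free in all 6 samples (chr20:20366640-20369920) held the start, the 5′ untranslated part and the whole coding sequence, and ended 120 bp behind the stop codon, within the 3′ untranslated part. Of its bases, 71.9% were G or C, with 11.9 CG per 100 bp, against 32.7% and 35.3% G or C in the flanks printed above. Its lower and upper limits were set by WT replicate 1. The strongest summit lay in the 3′ untranslated part in WT replicate 2, 231K replicate 1 and 232P replicate 2, at 2143, 2274 and 2067 bp from the start. In WT replicate 1 and 231K replicate 2 it lay behind the gene end, at 4804 and 3039 bp, and in 232P replicate 1 it lay 4490 bp before the start.

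**Figure D3:**
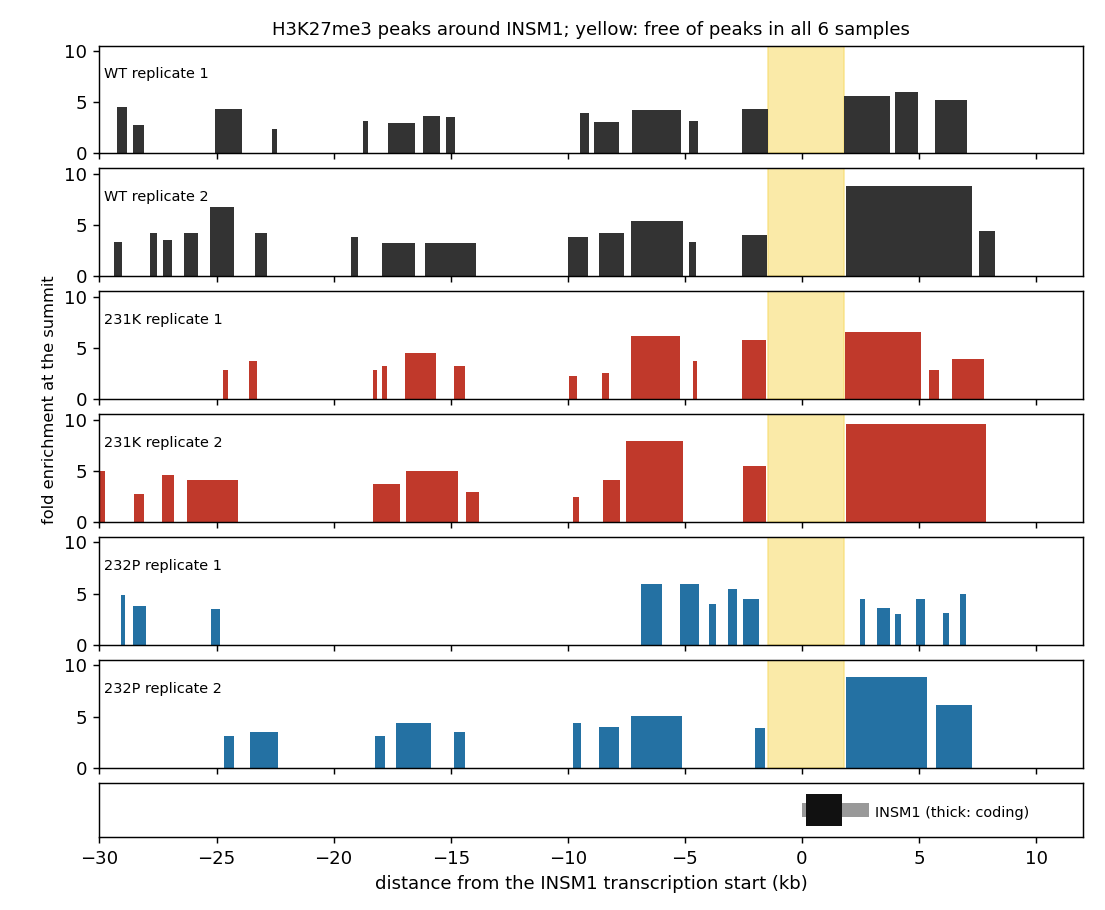
H3K27me3 peaks of the 6 samples by distance from the INSM1 start (kb), with the fold enrichment at the summit as height and the gene below. The yellow stretch of 3281 bp, free of peaks in all samples, spans the start and the coding part, and peaks stand on both sides of it in every sample.

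A start without a peak between flanks with one was rare over all genes. A gene start free of peaks within 1 kb in all 6 samples, with a peak within 5 kb on both sides in all 6, was found for 12 of the 20033 protein-coding genes, or 0.0599%. Of these 20033 genes, 13688 had no peak in any sample and could not meet this measure. This measure was chosen after the values of INSM1 were seen and supports nothing on its own. The 2 kb around the start had 73.6% G or C at INSM1. Over the 12 it ranged from 53.8% at MAGEB2 to 76.0% at POU3F1. It was 67.6% or more at ERICH1, FOXD2, FOXF1, FZD10, INSM1, POU3F1, SLC27A6 and TMEM271, and 56.6% or less at MAGEB2, PRR23B, TAF11L10 and TAF11L4. These genes were named after their values were seen. The genes on other chromosomes most like INSM1 in covered part over the 6 samples were OR2T4, SOD3 and TAP1, with a Euclidean distance of 7.88, 9.87 and 9.94 percentage points, among 6980 genes with a window of similar length. OR2T4 belongs to the olfactory receptors, a family of similar copies, and its peaks are uncertain. All 3 had a start-site peak in 6 of 6 samples, and INSM1 in 0.

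The mark was less often found in genes with a GC-rich window of 5 kb on each side, and 7 of the 8 genes lie in such windows. Of the genes in the lowest quintile of GC content in the gene with 5 kb on each side, 27.8% had a peak in all 6 samples, and 22.0%, 20.8%, 16.7% and 11.1% in the following quintiles. PHOX2A, GATA2, TBX2 and INSM1 were in the highest quintile, HAND1, HAND2 and GATA3 in the fourth and ISL1 in the third. The share of genes without a peak in any sample rose from 59.2% in the lowest to 78.2% in the highest quintile. In the 2 kb around the gene start, it was 59.1% in the lowest quintile and 81.3%, 83.7%, 84.0% and 82.2% in the others, while the share with a peak in all 6 samples fell from 21.9% in the lowest quintile to 11.1%, 9.01%, 7.90% and 7.10%. By that window, HAND1, GATA2, TBX2 and INSM1 were in the highest quintile, HAND2 in the fourth, GATA3 and ISL1 in the third and PHOX2A in the second. The part of GC content in the lack of peaks at the 7 genes and at the INSM1 start was not tested. Input libraries were not analysed here.

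**Figure D4:**
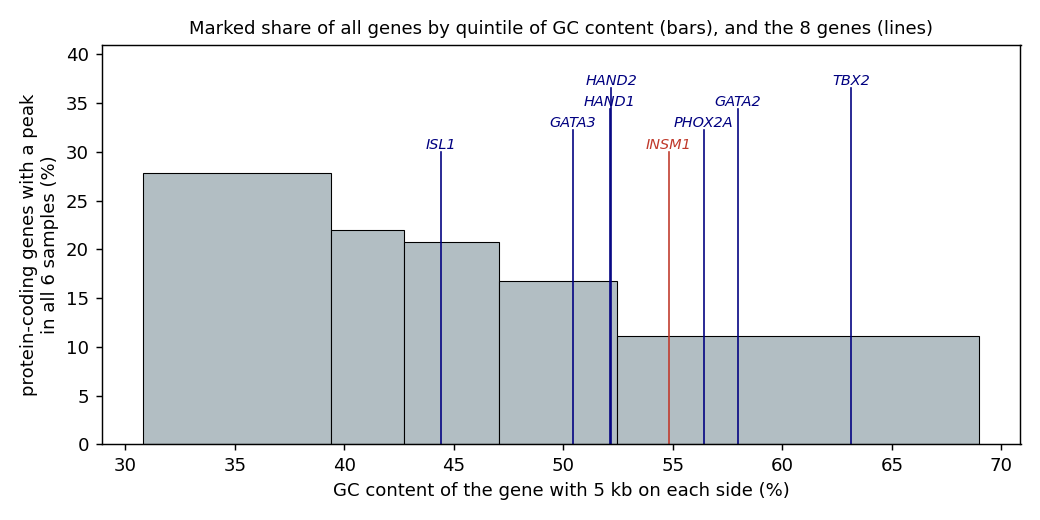
Percent of all protein-coding genes with a peak in all 6 samples (bars) by quintile of the GC content of the gene with 5 kb on each side, with the 8 genes at their own GC content (lines). The bars fall from 27.8% to 11.1%, and 7 of the 8 genes lie in the upper 2 quintiles.

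For the comparison of the Tau-KO lines with WT, INSM1 was the only member with a peak that could be lost, and it kept peaks in both lines. A loss here means a peak in both WT samples and in neither sample of the line, and of the 4855 genes with a peak in both WT samples 1.57% met it in 231K and 4.47% in 232P. None of the other 7 genes gained a peak in both samples of a line, beside 0.434% in 231K and 0.119% in 232P of the 14273 genes without one in WT. At 2 against 2 samples, the smallest p of a two-sided exact permutation test is 0.333, and these counts were left without a test. Both comparisons share the WT samples.

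At INSM1, the only member with values to test, the covered length in 231K differed from WT by 0.07 on the log2 scale (SE 0.42, 95% interval -0.97 to 1.12), with an adjusted p of 1.00 in limma over 4614 genes. In 232P the difference was 0.57 (SE 0.42, 95% interval -0.48 to 1.61, adjusted p 0.806 in limma). These values are on the scale of log2(covered bp + 200) and relative to the median of the genes tested. Without this centring, the median over the genes tested was -0.979 in 232P and the value of INSM1 -0.46 (SE 0.46, 95% interval -1.61 to 0.70, adjusted p 0.486 in limma), so that its sign turned while the interval still held 0. The centred value was 0.12 without 232P replicate 1 and 1.01 without 232P replicate 2 (95% interval 0.18 to 1.85, adjusted p 0.105 in limma), an interval that does not hold 0. For 231K, the sign of the covered length turned without 231K replicate 1, to -0.13. The top fold enrichment differed by 0.08 in 231K (SE 0.22, 95% interval -0.40 to 0.55, adjusted p 1.00 in limma over 3939 genes) and by 0.14 in 232P (SE 0.22, 95% interval -0.34 to 0.62, adjusted p 0.998 in limma). Without 232P replicate 1, the latter was 0.42, and it turned to -0.11 without 232P replicate 2 and to -0.07 without WT replicate 1. In 231K the sign turned without 231K replicate 2, to -0.07, and without WT replicate 1, to -0.14. With all 6 samples, the 4 intervals hold 0, which does not show that the lines and WT were alike.

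Over all genes tested, limma called 0% in each of the 4 comparisons at an adjusted p of 0.05. The study, with limma on counts at single marks, reported significant differences at some marks in each line, most of them reduced. Its unit and measure are unlike those used here, so the 0% does not speak against that result. With an unadjusted p under 0.05, there were 87 genes for covered length in 231K and 271 in 232P, and 160 for top fold enrichment in each line. In simulated data for 231K against WT, 4% of genes with a change of 2 on the log2 scale in covered length were recovered over 4614 genes. For top fold enrichment, 78% of genes with a change of 1 and 100% with a change of 2 were recovered over 3939 genes. For covered length, most of the genes given a change of 2 were thus missed. In the measured lists the SE differed between genes, and for covered length in 231K it was 0.42 at INSM1 and 1.79 at ATP2B3. Recovery at the SE of single genes was not tested for either measure.

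The lists of related genes are read beside all genes, of which 68.3% had a peak in no sample, 19.7% in all 6 and 11.4% a start-site peak in all 6. Of 8 partner regulators of the adrenergic state, none had a peak in all 6 samples, 2 had one in some and 6 in none, which is near the share over all genes. The 2 were SATB1, a chromatin organiser, with 0% to 1.92% covered and no peak in 232P replicate 1, and DACH1, with 0% to 0.294% covered and a peak in replicate 2 of each genotype only. Of 10 noradrenergic effector genes, 9 were free of peaks in all 6 samples, among them TH, the rate-limiting enzyme of catecholamine synthesis, and DBH, which makes noradrenaline. The exception was SLC18A2, the vesicular monoamine transporter, with 0.801% covered in WT replicate 2 and 0.947% in 231K replicate 2. The median distance to the nearest peak was 652 kb for the partners and 130 kb for the effectors, beside 523 kb for the 8 genes and 112 kb for all genes. Of the effectors named, TH was 14.5 to 20.1 kb from a peak over the 6 samples, and DBH 323 to 339 kb.

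Among the paralogs, genes of the same families outside the circuitry, some were marked over most of their length. Of 10, 4 had a peak in all 6 samples and 5 in none, and 3 had a start-site peak in all 6, beside 19.7%, 68.3% and 11.4% of all genes. GATA6, an endoderm and heart factor, was covered to 78.1% and 80.5% in WT, 72.0% and 80.4% in 231K and 44.6% and 59.6% in 232P. TBX5 was covered to 71.5% and 72.7% in WT, 70.0% and 79.8% in 231K and 42.9% and 57.5% in 232P. LHX1, a LIM homeodomain factor of the kidney, was covered to 42.1% and 50.4% in WT, 29.8% and 45.9% in 231K and 43.9% and 29.6% in 232P, so the genotypes overlapped. GATA1, the red blood cell factor, had a mean of 23.4% and was named after its values were seen. Both 232P samples were below the other 4 at GATA6, TBX5 and GATA1, as at INSM1, but not at LHX1. The covered part of the genes marked in all 6 samples was also lowest in 232P replicate 1, with a median of 8.07% against at least 25.3% in each of the other samples. The part of list length in these lower values was not tested. Among the unmarked paralogs, TBX4 shares the free stretch of TBX2, and INSM2 was 349 kb from a peak, while its paralog INSM1 was marked in all samples.

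Of 15 markers of the mesenchymal state, 6 had a peak in all 6 samples, 3 in some and 6 in none, and 5 had a start-site peak in all 6. Over all genes, 19.7% had a peak in all 6, 68.3% in none and 11.4% a start-site peak in all 6. PRRX1, a homeodomain factor of mesenchyme, was covered to 67.4% on average over the 6 samples, MEOX2 to 60.8% and RUNX2 to 51.6%. These were named after their values were seen. VIM, CD44 and MEOX1 were among the 6 with no peak in any sample, which tied as the lowest of the list. The markers of this state thus did not share 1 state of the mark. The median distance to a peak was 28.0 kb for this list. TWIST1 belongs to both this list and the paralogs. Differences between the lists were not tested, since their genes are not replicates and were chosen with results of these data known.

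**Figure D5:**
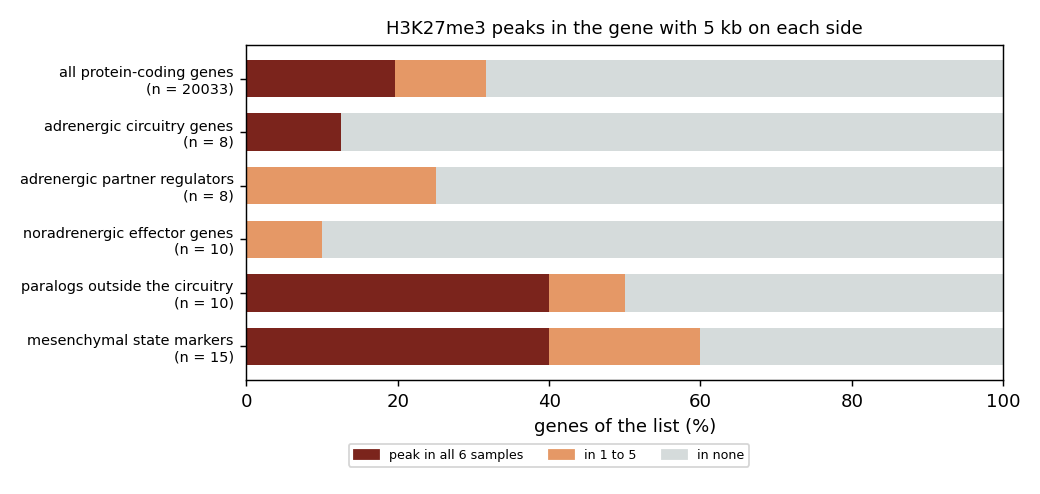
Percent of genes of each list with an H3K27me3 peak in the gene with 5 kb on each side in all 6 samples, in 1 to 5 or in none, beside all protein-coding genes. Of the adrenergic circuitry genes 7 of 8 are in the group with none, beside 68.3% of all genes. The other lists have 6 of 8 partner regulators, 9 of 10 effector genes, 5 of 10 paralogs and 6 of 15 mesenchymal markers in it.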

How the data were processed

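Per the methods, reads were trimmed (trimmomatic), aligned to hg38 (BWA) and passed to MACS (version 2) by the authors, sample by sample. Their text names a broadPeak setting, while the deposited lists have the 10 columns of narrowPeak. The threshold, fragment length and control library that MACS was run with were not given in the sources used here. In the deposited lists, the fold enrichment is the ratio of pile to background at the summit, each with 1 added, and is not normalized between samples. The p-value and the q-value of each summit are deposited as -log10, and the deposited score was not used. The 6 input samples were not analysed.

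Reads at each summit and the background were recovered from fold enrichment and p-value, and 100% of peaks gave whole reads (tolerance 0.01 in -log10 p). The lowest background per bp of the smallest peak gave the relative depth, 56.9% to 100%. The number of reads is unknown, so no counting interval is given.

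Protein-coding genes were those of GENCODE release 44 on chromosomes 1 to 22, X and Y. A gene was marked when a peak overlapped it with 5 kb on each side by at least 1 bp. limma 3.58.1 (R 4.3.3) was fitted over all genes with a mean of at least 500 bp covered, or with a peak in all 6 samples, centred on sample medians, with Benjamini-Hochberg adjustment. Python 3.11.15, pandas 2.3.3 and numpy 2.4.6 did the rest. The recovery of reads and the limma fit, the latter for 231K against WT, were tested on simulated data. As the study used limma on counts, which the lists do not hold, covered length and fold enrichment took their place. Groups followed the labels, and p-values measure only the spread between these samples.

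The 8 genes and the lists were chosen with earlier results of these data known. The rule for names was all 8 genes, up to 3 of each list with the highest and lowest mean covered part, and the 3 genes most like INSM1. Alternatives were other q-value thresholds, windows, offsets and filters, equal numbers of peaks, no centring, the median fold enrichment, a replicate block and leaving out each replicate.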

Additional observations from a re-analysis of the deposited data

How the results depend on the processing

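With INSM1 as the only one, 1 of the 8 genes was marked in all 6 samples under every alternative of threshold, number of peaks, window and left-out replicate, and INSM1 lost its peaks in neither line. With 2.5 kb in place of 1 kb around the start, 1 member, INSM1, had a start-site peak in all 6 samples, beside 14.9% of all genes. This wider window reaches beyond the stretch free of peaks. limma called 0 genes under every alternative run. At an unadjusted p under 0.05, the alternatives gave 39 to 203 genes for covered length in 231K, 121 to 1653 in 232P, 110 to 222 for top fold enrichment in 231K and 141 to 299 in 232P. The 1653 genes came without 232P replicate 2, where replicate 1, the shortest list, stood alone for the line and was assumed to vary like the other groups.

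The difference of INSM1 in covered length between 232P and WT was -0.456 without centring. With each replicate left out in turn, it ranged from 0.124 to 1.01 for 232P, the latter without 232P replicate 2 and with an interval above 0, and from -0.130 to 0.280 for 231K, and the top fold enrichment from -0.115 to 0.424 for 232P and from -0.135 to 0.283 for 231K. The signs turned without 231K replicate 1 for covered length in 231K (-0.130), without 231K replicate 2 (-0.0680) or WT replicate 1 (-0.135) for fold enrichment in 231K, and without 232P replicate 2 (-0.115) or WT replicate 1 (-0.0738) for that in 232P. With the replicate number as a block, the differences in covered length at INSM1 were again 0.07 and 0.57, the SE was 0.33 and limma called 0 genes. Differences between replicates 1 and 2 correlated across genes between genotypes, with r of 0.224 to 0.382 for covered length and 0.0528 to 0.102 for fold enrichment. The labels name no shared batch or day. The lists also differ in peak width by number, so a technical step shared by number was not tested apart from the block.

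When only peaks with a -log10 q-value of 5 or more were kept, INSM1 was still marked in all 6 samples, and the median distances of the other 7 genes rose to 509 to 2982 kb. Of all genes, 8.13% to 43.5% were then at least as far as these 7, against 5.62% to 29.8% with all peaks. The depth limits what absence means, since stretches with fewer than 5 reads at the summit give no peak.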
